A study of Caenorhabditis elegans with 2 samples.

Results

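Homeobox genes encode transcription factors that bind DNA through a homeodomain, many of them at sites with a TAAT core. In *Caenorhabditis elegans* they fall into classes such as Hox, paired, LIM, POU and sine oculis, and many are known for fixing the identity of single neuron types or of body regions. CEH-8, itself a paired-like homeodomain protein and a marker of the RIA interneurons, was mapped here by chromatin immunoprecipitation, and the question asked was at which other homeobox genes its peaks lay. The set held 79 of the 19973 protein-coding genes on the 6 nuclear chromosomes. It was made of the genes named ceh with a number, without ceh-8, the AIY regulators and the CUT homeobox genes, and of 25 homeobox genes with other names, such as unc-86 and lin-39. A gene was given every peak whose summit, the peak's highest point, lay in the gene or within 3000 bp of either end.

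There was 1 group, of 2 biological replicates. It consisted of whole L1 larvae of both sexes, 6 hours old and starved after bleaching, of strain OP760. This strain has the unc-119(tm4063) mutation and the transgene wgIs760, which carries unc-119(+) and ceh-8 fused to TY1, EGFP and 3xFLAG. The tagged protein was precipitated with an anti-GFP antibody. The whole larva was used, so the files do not separate the RIA cells from others, and with a single group no test between conditions can be made. The authors deposited 30000 peaks for each replicate, 30000 for both replicates together (the pooled list) and 1891 optimal IDR peaks, which were the 1891 strongest pooled peaks by the authors' signal. IDR, the irreproducible discovery rate, scores how alike peaks rank in both replicates. Rank 1 is the strongest peak of a list. An IDR peak is called found in both replicates here if one of the 1891 strongest peaks of each had its summit within 200 bp. Read depth is unknown from these files. Coordinates are on ce11.

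Strong CEH-8 peaks lay at a minority of the homeobox genes, as they did of all protein-coding genes. Of the 79, 9 had an IDR summit in the gene or within 3000 bp, or 11.4%, beside 15.9% of all protein-coding genes. These were ceh-32, lim-7, vab-3, ceh-5, ceh-99, unc-62, ceh-62, ceh-57 and ceh-58. They shared 10 distinct summits, since ceh-57 and ceh-58 are neighbours with the same 1 summit in both windows, and unc-62 and ceh-62 had 2 each. At 6 of the 79 (7.59%) a summit was found in both replicates, beside 10.1% of all genes. Those 6 were ceh-32, lim-7, vab-3, ceh-5, ceh-99 and unc-62. None of these shares was tested against other genes.

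The sequences below are the 101 bases around 5 of the summits: the 4 strongest that were found in both replicates on the chromosomes shown, and that at ceh-58, which held TAATTA. The sequences are the plus strand of the reference (WBcel235, RefSeq), in lower case, with every TAAT core of either strand (TAAT or ATTA) in capitals.
ceh-32, chrV:11706505-11706605: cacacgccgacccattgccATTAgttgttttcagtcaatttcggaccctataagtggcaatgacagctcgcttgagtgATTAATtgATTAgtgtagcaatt
vab-3, chrX:10514185-10514285: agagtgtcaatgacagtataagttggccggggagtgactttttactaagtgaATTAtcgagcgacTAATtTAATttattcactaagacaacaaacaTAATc
ceh-99, chrII:12526662-12526762: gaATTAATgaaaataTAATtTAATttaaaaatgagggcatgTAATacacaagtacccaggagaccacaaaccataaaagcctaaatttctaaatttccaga
unc-62, inner summit, chrV:4507995-4508095: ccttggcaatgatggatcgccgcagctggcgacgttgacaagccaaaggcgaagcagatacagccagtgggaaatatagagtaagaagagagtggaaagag
ceh-57 and ceh-58, chrII:10369774-10369874: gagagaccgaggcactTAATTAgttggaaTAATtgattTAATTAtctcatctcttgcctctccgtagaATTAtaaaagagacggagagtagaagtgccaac
The window at ceh-58 held 6 TAAT cores, the most of the 10 summits, and that at ceh-99 held 5. The windows at ceh-32 and vab-3 held 4 each and that at the inner unc-62 summit 0. A further pair, chosen after the values were seen, is shown because they are unlike each other: the second ceh-62 summit holds TAAT and ATTA 3 bases apart, and the other unc-62 summit lies within a run of 20 C.
ceh-62, second summit, chrII:10807030-10807130: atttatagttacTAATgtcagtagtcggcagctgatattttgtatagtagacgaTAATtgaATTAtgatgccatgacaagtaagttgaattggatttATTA
unc-62, outer summit, chrV:4503374-4503474: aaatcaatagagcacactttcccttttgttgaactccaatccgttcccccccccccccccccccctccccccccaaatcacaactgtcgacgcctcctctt

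The strongest homeobox peak lay upstream of ceh-32 (WBGene00000453, V, 11701764 to 11705400, minus strand). This gene encodes a homeodomain protein of the sine oculis class, related to vertebrate Six3, that is needed for the form of the head. The peak (11706480 to 11706617) ranked 102 in the IDR list with signal 329, 162 in replicate 1 with signal 160 and 91 in replicate 2 with signal 166. Its summit was 1155 bp upstream of the start of ceh-32, and the replicates placed it within 2 bp of the pooled summit. The next protein-coding start, that of tre-3, was 9348 bp away, but 2 annotated non-coding RNA genes on opposite strands, W05E10.13 and W05E10.15, covered the summit. In the sequence above, TAATTG and further TAAT cores stand together near its right end. Replicate 1 had another of its strong peaks 2487 bp upstream of ceh-32, of rank 1437, where replicate 2 had a peak of rank 7934.

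The next peak lay inside lim-7 (WBGene00002989, I, 5716574 to 5725809, plus strand), a LIM homeobox gene of the Islet family known from the gonadal sheath. It ranked 196 in the IDR list with signal 251, 320 in replicate 1 with signal 122 and 173 in replicate 2 with signal 130. The summit was in an intron, 5805 bp inside the gene, and no start of another gene was nearer. It was one of the 2 homeobox summits with TAATTA within 50 bp. In both replicates lim-7 was second among the homeobox genes, after ceh-32.

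In vab-3 (WBGene00006870, X, 10499890 to 10519580, plus strand), the Pax6 gene of the worm and the 1 gene of these 9 placed with ceh-8 in the paired and paired-like class, a peak of IDR rank 704 lay 14345 bp inside the gene. Replicate 1 ranked it 969 and replicate 2 ranked it 647. The gene has 4 annotated transcript starts, and the summit was 1189 bp upstream of an inner one. Shorter vab-3 transcripts from inner starts are known to lack the paired domain. The pooled list held 15 summits in or around vab-3, and only this 1 was an IDR peak.

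The gene unc-62 (WBGene00006796, V, 4497461 to 4511449, plus strand) encodes the Meis class partner of Hox and PBC proteins. Its 2 IDR summits ranked differently in the replicates. The inner one, of IDR rank 1164, lay 10584 bp inside the gene and 841 bp past an inner transcript start, in an exon annotated as 5' UTR for some transcripts. Replicates 1 and 2 ranked it 1377 and 917. The outer one, of IDR rank 1307, lay in an intron 537 bp upstream of another inner start. It ranked 905 in replicate 1 but 22528 in replicate 2. The run of 20 C lay in its window, and 57.4% of the 101 bases were G or C, the highest of the 10 summits. Runs of at least 10 of the same base lay in 2.7% of all IDR windows. Around the replicate 1 summit of rank 905 itself, GC content was 44.6%. Another strong peak of replicate 1 in unc-62, of rank 1562, had no replicate 2 peak within 200 bp. GC content around that peak's own replicate 1 summit was 56.4%.

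The peak assigned to ceh-5, an NK-like gene (WBGene00000430, I, 9727169 to 9728034, plus strand), ranked 786 in the IDR list, 998 in replicate 1 and 818 in replicate 2. Its summit was 1768 bp upstream of ceh-5, and this was the nearest start. It lay, however, in an intron shared by 2 other genes that overlap there on opposite strands, eat-16, which encodes an RGS protein, and ocrl-1. At ceh-99 (WBGene00044032, II, 12519981 to 12524478, plus strand) the peak of IDR rank 1021 lay 2234 bp past the gene's far end. It was in an intron of srx-118, a chemoreceptor gene, 886 bp from the start of that gene. Its ranks in replicates 1 and 2 were 1339 and 1689. Both peaks thus were found in both replicates, and both lay inside other genes.

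At ceh-57, ceh-58 and ceh-62 the IDR peaks were among the strongest of replicate 2 and not of replicate 1. The summit shared by ceh-57 and ceh-58 (II, 10369649 to 10369998) lay in the promoter of ceh-58 (WBGene00007417, II, 10367741 to 10369597, minus strand), 227 bp upstream of its start and 2528 bp upstream of that of ceh-57. It ranked 1482 in the IDR list, 3979 in replicate 1 and 1379 in replicate 2. As the sequence shows, 2 copies of TAATTA lie to the left of the summit, with TAATTG between them. A weaker peak lay 220 bp upstream of ceh-57, outside the IDR list. Its rank was 2103 among the pooled peaks, 1497 in replicate 1 and 3925 in replicate 2. The replicate 1 summit of this peak too had TAATTA within 50 bp. The gene ceh-62 (WBGene00011069, II, 10805737 to 10808611, plus strand) had a summit 2033 bp upstream of its start, of IDR rank 1290, and another in an intron 1343 bp inside, of rank 1580. The first ranked 2020 in replicate 1 and 900 in replicate 2, the second 3775 and 1306. The first was near the limit of the strong peaks of replicate 1, the second well beyond it.

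**Figure D1:**
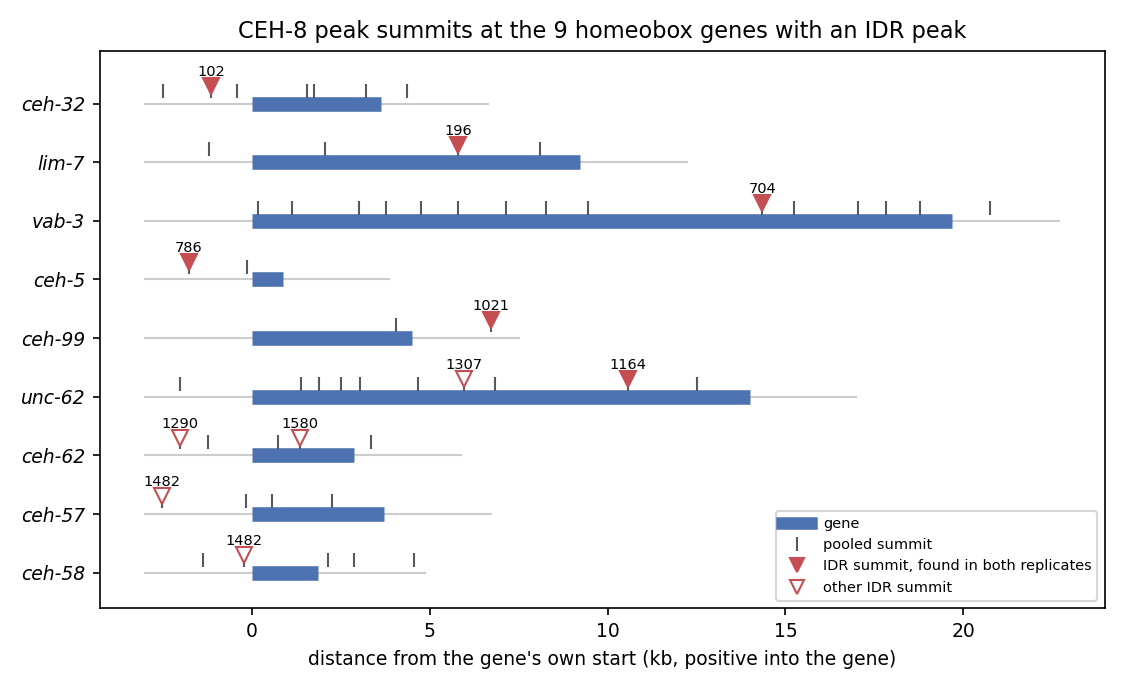
Position of peak summits at the 9 homeobox genes with an IDR summit, in kb from each gene's own start. Blue bars are genes, grey lines the 3 kb windows, ticks the summits of the pooled list, and triangles the IDR summits with their rank (filled where found in both replicates). Of the 10 IDR summits 5 lie inside the gene and 5 outside, and the 227 bp between the ceh-58 start and its summit are the shortest distance.

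The IDR peaks were the 1891 strongest of the pooled list, which was made from both replicates' alignments. Agreement at these 10 summits is thus partly set by the choice of list. A peak of each replicate lay within 200 bp of all 10. Over all IDR peaks this held for 99.4% with replicate 1 and 93.9% with replicate 2. Within that limit, the replicate summits lay a median of 3 bp and at most 147 bp from the pooled summit. Of the 10, 6 were among the 1891 strongest of both replicates, 1 (the outer unc-62 summit) of replicate 1 only and 3 of replicate 2 only. Of all IDR peaks 58% were found in both by the same rule, so the 60% here is near that background.

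**Figure D2:**
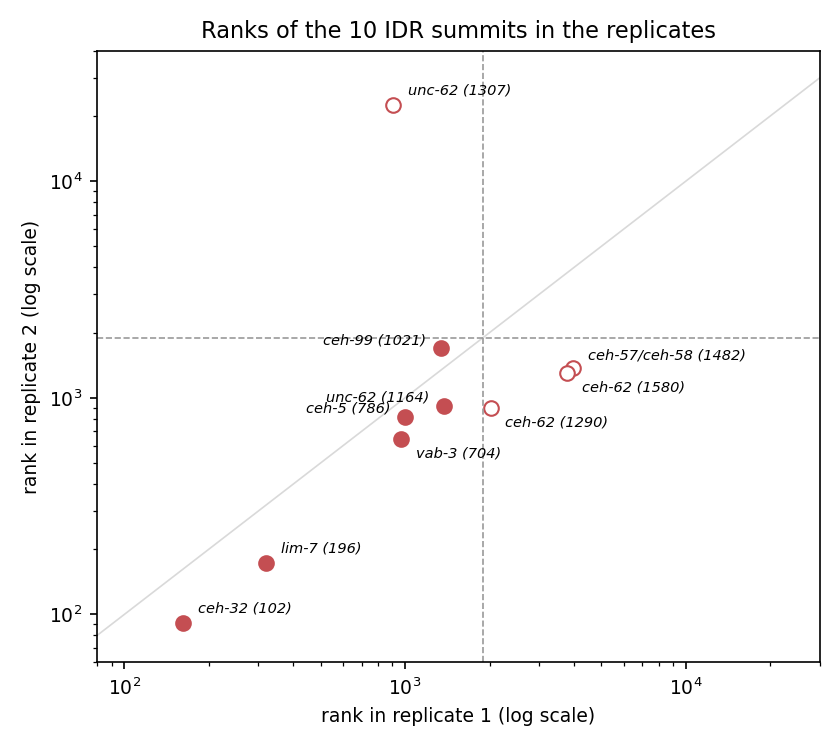
Rank of each of the 10 IDR summits in replicate 1 (x axis) and replicate 2 (y axis), both on log scales, labelled with the gene and the IDR rank. Filled points were found in both replicates, dashed lines mark rank 1891, and the diagonal marks equal ranks. The outer unc-62 summit stands apart, at rank 905 in replicate 1 and 22528 in replicate 2.

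Most of these summits were not in promoters. A promoter (the 1000 bp upstream of a start) held 1 of them, that of ceh-58, beside 44.5% of all IDR summits. Introns held 6 of the 10, beside 20.9% of all, and those at ceh-5 and ceh-99 were introns of other genes. The others were in a 5' UTR (inner unc-62), in non-coding RNA genes (ceh-32) and in other intergenic sequence (the first ceh-62 summit). The homeobox summits were picked through windows on genes with a longer median length than all genes, and the IDR summits as a whole were not. The median distance to the nearest start was 1900.5 bp here and 903 bp over all IDR peaks. When every annotated transcript start counted, 2 of the 10 lay in a promoter, that of ceh-58 as before and the outer unc-62 summit. The share of all IDR summits under that rule is not given here. For 7 of the 10 the nearest outermost start was that of a member, and 6 members were the nearest to at least 1 summit.

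The letters at the summits were read in the same 101-base windows of all 1891 IDR peaks, on both strands and with the motif wholly inside. TAATTA, which contains a TAAT core on each strand, lay at 2 of the 10 homeobox summits (lim-7 and ceh-58) and at 6.93% of all. TAATTG lay at 5 (ceh-32, lim-7, ceh-58 and both of ceh-62), beside 11.6% of all. TAAT and ATTA 3 bases apart, the spacing at which paired-class dimers can bind, lay at 1 (the second ceh-62 summit), beside 1.8%. Any TAAT core lay at 7, beside 47.8%, and GAGAGA at 1, beside 21.6%. The 3 summits without a core were those of ceh-5 and both of unc-62. The GC content ranged from 28.7% to 57.4%, with a median of 40.1% beside 45.5% over all. With 10 windows, these shares describe the sites and were not tested.

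In the pooled list taken whole, the homeobox share was near that of all genes and slightly above it, with no allowance for gene length. This list placed a summit at 73 of the 79 (92.4%), beside 88.4% of all genes. Each of the 79 had a summit of at least 1 of the 3 long lists, a share not given here for all genes. A pooled summit with a peak of any rank in both replicates was present at 53 (67.1%), beside 57.8%. The median rank of a gene's strongest pooled peak was 7781 over the 73 and 7600.5 over all genes with one. Near the top the homeobox share was lower: 4 genes (5.06%) had a peak among the 1000 strongest, beside 9.56% of all genes, and 21 (26.6%) among the 5000 strongest, beside 32.6%. At rank 10000 the shares were 55.7% and 53.6%. Among the strongest 1891 peaks of a single replicate, 10 of the 79 (12.7%) had one in replicate 1, beside 15.6% of all genes, and 9 (11.4%) in replicate 2, beside 15.4%.

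The homeobox genes were longer than other genes, with a median of 3339 bp beside 2027 bp for all. Of the 34 of at least 3637 bp, 6 had an IDR summit, or 17.6%, beside 22.6% of all genes that long. Of the 45 shorter ones 3 had one (6.67%), beside 13.7%. Counted without any flank, 4 of 79 genes (5.06%) held an IDR summit, beside 2.87% of all, so that the order of the shares turned there. Joined into 0.789 Mb without overlaps, the windows held 12.7 IDR summits per Mb, beside 19.1 for the windows of all genes and 18.9 for the 6 chromosomes. For the pooled list the densities were 286, 305 and 299 per Mb.

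**Figure D3:**
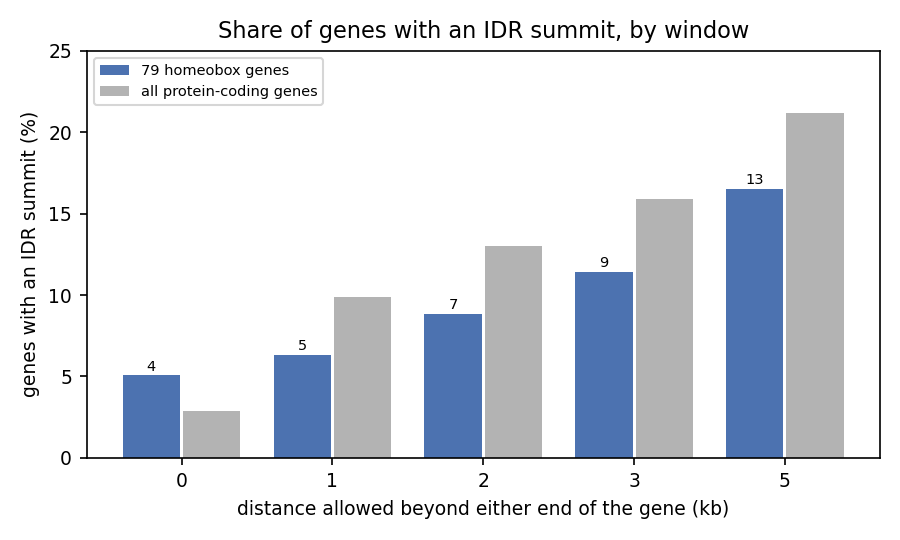
Percent of the 79 homeobox genes (blue, with the number of genes above each bar) and of all 19973 protein-coding genes (grey) with an IDR summit, by the distance allowed beyond either end of the gene in kb. The blue bar is the higher one at 0 kb and the lower one at 1, 2, 3 and 5 kb.

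The IDR summits fell in several classes, and 57 of the 79 genes had been given a class. Of 4 sine oculis genes ceh-32 had one, of 6 LIM genes lim-7, of 4 TALE genes unc-62, of 12 paired and paired-like genes vab-3, and of 19 NK-like genes ceh-5. The 22 numbered genes without a class held the other 4. In the Hox, Cdx and Evx, POU and zinc finger classes there was none, among 12 genes. Beside the 15.9% of all genes, classes this small give no reading of one class against another.

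The 6 Hox genes, which set position along the body, are all on chromosome III. Their strongest pooled peaks ranked 5019 at ceh-13, 7289 at nob-1, 9081 at lin-39, 14811 at php-3 and 21314 at mab-5, and egl-5 had none. The neighbours nob-1 and php-3 are 236 bp apart and share part of their windows. At ceh-13, the labial gene, the strongest peaks ranked 3878 in replicate 1 and 5796 in replicate 2. At mab-5 replicate 1 had a peak of rank 3409 and replicate 2 had none. No Hox gene thus had one of the 1891 strongest peaks of any list. By chromosome, an IDR summit was present at 2 of 9 homeobox genes on I, beside 18.6% of all genes there, at 4 of 14 on II, beside 15.4%, and at 2 of 14 on V, beside 12.1%. It was present at 0 of 14 on III, beside 20.9%, at 0 of 6 on IV, beside 14.1%, and at 1 of 22 on X, beside 18%. The homeobox share was thus above that of all genes on I, II and V and below it on III, IV and X, over few genes each, and these differences were not tested.

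Among the paired and paired-like genes, the class of ceh-8, the median rank of the strongest pooled peak was 8237 over the 11 with one, beside 7600.5 over all genes. After vab-3, the next pooled ranks were 5277 at ceh-53, 7158 at ceh-36, an Otx gene of chemosensory neurons, and 7781 at ceh-17, a Phox2 gene. At unc-4, a gene of motor neuron identity, the best pooled rank was 8237, at ttx-1, of the AFD thermosensory neurons, 8437, and at unc-30, of GABA neurons, 12685. The summits at ceh-17 and unc-30 were nearest to the gene's own start. Those at ceh-53, ceh-36, unc-4 and ttx-1 were nearest to the start of another gene, though at ceh-53 and ttx-1 they lay inside the gene. The pooled summits at ceh-36 and ttx-1 had no replicate 1 peak within 200 bp. A replicate 2 peak of rank 2814 at dsc-1 came nearest to the strong peaks of that replicate. The pooled summit there ranked only 16477 and had no replicate 1 peak within 200 bp. The best replicate 1 peak in the dsc-1 window, of rank 12320, was thus not at that pooled summit. The gene ceh-45, related to goosecoid, had no pooled summit.

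Of the other regulators of neuron identity, lin-11, a LIM gene, came closest to the IDR list. An intron peak 4631 bp inside lin-11 ranked 2201 among the pooled peaks, 1643 in replicate 1 and 8620 in replicate 2. It and ceh-89 were the 2 homeobox genes with a strong peak of 1 replicate and no IDR summit. The peak given to ceh-89 (pooled rank 2159, 1800 in replicate 1 and 6932 in replicate 2) lay in the promoter of the kinase gene akt-2, 757 bp from its start. At zag-1, a zinc finger homeobox gene of neurons, a peak 1036 bp upstream ranked 3330 in the pooled list, with 5080 and 5337 in the replicates. The PBC gene ceh-20, which encodes a partner of UNC-62, had its best peak 844 bp upstream, at pooled rank 4840. The POU gene unc-86 and the LIM gene mec-3, both needed for touch receptor neurons, had best pooled ranks of 19141 and 21166, and lim-4 had no pooled summit.

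**Figure D4:**
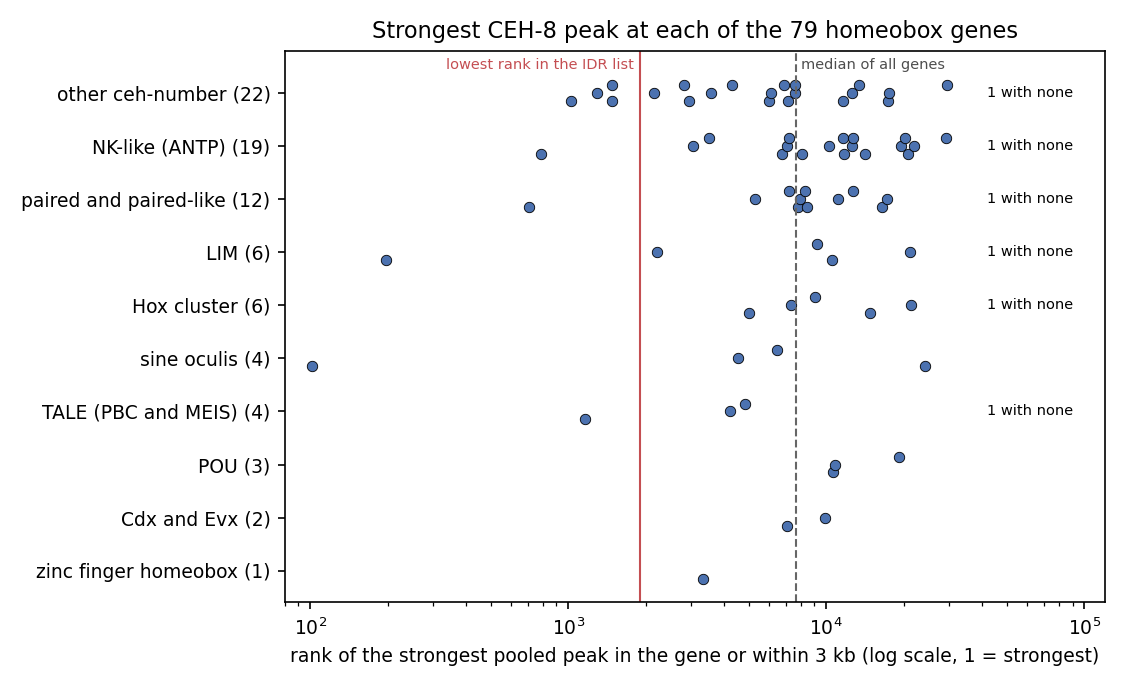
Rank of the strongest pooled peak in or within 3 kb of each of the 79 homeobox genes (x axis, log scale, strongest to the left), by class with the number of genes in brackets. The red line marks rank 1891, the end of the IDR list, and the dashed line the median of all protein-coding genes with a pooled summit, 7600.5. The 9 points left of the red line are ceh-32, lim-7, vab-3, ceh-5, ceh-99, unc-62, ceh-62, ceh-57 and ceh-58, and 6 genes have no pooled summit.

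The counts depended on the limit of 3000 bp: 4, 5, 7, 9 and 13 homeobox genes had an IDR summit with 0, 1000, 2000, 3000 and 5000 bp allowed on each side. Those were 5.06%, 6.33%, 8.86%, 11.4% and 16.5% of the 79. The shares of all protein-coding genes also rose with the window, from 2.87% to 9.9%, 13%, 15.9% and 21.2%. The farthest summit inside the limit of 3000 bp was that of ceh-57, 2528 bp from the gene. The nearest outside was at ceh-43, the Distal-less gene, at 3064 bp (IDR rank 1739). It was followed by ceh-54 at 3743 bp (rank 485) and ceh-24 at 3837 bp (rank 731). Over the 79 genes the median distance to an IDR summit was 19138 bp, and 54 were over 10000 bp from one. The same distances are not given here for all genes, so these values allow no comparison with other genes. The longest distances, up to 410456 bp, were at the neighbours ceh-81, ceh-82 and ceh-83.

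The choice of the set bears on its share. Of 11 homeobox genes set apart from it, 6 had an IDR summit in the same window, all found in both replicates. Besides ceh-8, whose strongest summit ranked 23 and which the transgene carries, these were ceh-38 (rank 557), ceh-39 (rank 685), ttx-3 (rank 693), ceh-48 (rank 897) and ceh-23 (rank 1086). The genes ceh-10, ceh-21, ceh-41, ceh-49 and unc-42 had none. These genes were set apart with results of these data known, so nothing is read from the difference. Together the 90 genes gave 15 with an IDR summit, or 16.7%, close to the 15.9% of all protein-coding genes, and 12 (13.3%) with one found in both replicates.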

How the data were processed

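The files used were 4 peak lists in narrowPeak format on ce11. Per the file headers, each replicate's list was made from its alignment and a control alignment, the pooled list from both alignments, and the optimal IDR list from the other 3. The signal value of each peak is the authors' own, and served to rank peaks within a list. Its scale, the caller, the aligner and the cutoff for IDR were not given in the sources used here. All IDR peaks were part of the pooled list. The other deposited column used was the summit offset, added to the peak's start. Per the labels, chromatin was sonicated to fragments of 200 to 800 bp.

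Genes were those of Ensembl release 115 (WBcel235, the same assembly as ce11), in which no peak ran past a chromosome end and 99.86% of start codons read ATG in the RefSeq sequence. A start is a gene's outermost one. Where a summit fell in several classes, the order was promoter (1000 bp upstream), then 5' UTR, then coding exon, then intron, then 3' UTR, then non-coding RNA gene. Python 3.11.15, numpy 2.4.6 and pandas 2.3.3 were used, and the counting steps were tested on simulated data. The members, classes and rules were chosen with earlier results of these data known. Named were all members with an IDR summit, those with a strong peak of 1 replicate, those nearest to the window's limit, and the other homeobox genes as a set. The ranks given for further genes were chosen after they were seen. No test was run, because there is 1 group, and shares are set beside those of all protein-coding genes. The alternatives were other windows, peak lists, matching distances, promoters and motif windows.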

Additional observations from a re-analysis of the deposited data

How the results depend on the processing

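No paired analysis was possible because both replicates form 1 group and no test was run. The window and the cut on peak strength both moved the counts. With the gene alone, 4 homeobox genes had an IDR summit (5.06%, beside 2.87% of all genes) and 3 one found in both replicates. There were 5 distinct summits and 3 genes whose own start was the nearest. With 1000 bp to each side 5 genes had a summit (6.33%, beside 9.9% of all genes), 3 had one found in both, and 6 summits were distinct. The share of all genes with a summit found in both is not given here for these windows. With 5000 bp there were 18 distinct summits. In the stronger 50% of the IDR peaks 4 genes had a summit (5.06%, beside 9.06% of all genes). These peaks gave 4 distinct summits, 3 genes whose own start was the nearest, 0 summits in promoters and 1 with TAATTA. With the strongest peaks of either replicate alone, 9 to 10 genes had a summit (11.4% to 12.7%, beside 15.4% to 15.6% of all genes). Those peaks gave 9 to 12 distinct summits, 5 to 6 genes whose own start was the nearest, 1 to 2 summits in promoters and 2 with TAATTA. Counting every annotated transcript start gave 2 summits in promoters. The share of homeobox genes was above that of all genes only with the gene alone, and below it in each other window and list of IDR or strongest replicate peaks tried. Read depth is unknown, so a weak peak and a missing one cannot be told apart by depth, and with 2 replicates of 1 strain no spread beyond their ranks can be given.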
